A study of Drosophila melanogaster with 12 samples.

Results

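Enteroblasts (EBs) are the progenitors of the adult fly midgut that mature into enterocytes (ECs), which take up nutrients. Here 142 of the 15473 transcripts on the array were described: those higher in purified control EBs than in whole control guts, lower in EBs after RNAi against Hey, and little changed when Hey was targeted in ECs of the gut. The members were chosen by measured values. The mean of Hey RNAi EBs had to lie at least 2 log2 units below that of control EBs, with all 3 Hey RNAi EB arrays below all 3 control EB arrays. The mean of control EBs had to lie at least 1 log2 unit above that of control guts, and the gut means with and without Hey RNAi had to differ by less than 0.8. Control EBs enter both the first and the second condition, so an array value that is high by error in control EBs moves a transcript towards both limits. These 3 differences are therefore given as a description, with no test.

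All samples came from adult Drosophila melanogaster females, with 3 arrays in each of 4 groups. Hey RNAi EBs expressed UAS-Hey RNAi under Hey-Gal4 together with the membrane marker UAS-mCD8GFP and were isolated on magnetic beads against CD8. Control EBs expressed UAS-GFP under the same driver with the same marker. Hey RNAi guts were whole guts in which MyoIA-Gal4 drove the RNAi in ECs, with a temperature-sensitive Gal80 to hold the driver back, and control guts carried UAS-GFP with this driver. Per the labels, flies were reared at 18 °C, and adults aged 2 to 4 days spent 2 days at 29 °C before RNA was taken. The study's methods give a longer stay at 18 °C before the shift for the EB flies, so EB and gut flies may have differed in age. Their description of the EB cross names no Gal80. Whether Hey RNAi acted in EBs before the shift is therefore not known. The study describes Hey-Gal4 as an EB driver with little activity in stem cells, and the purity of the bead-selected cells differed between preparations. EB samples can hold other cells, and whole guts hold EBs beside ECs, endocrine cells, muscle and other tissue. Fewer cells of a type and less RNA per cell cannot be told apart in such bulk samples.

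Hey is a basic helix-loop-helix Orange protein of the HES family, transcription factors that act mostly as repressors and are known as targets of Notch. In the midgut, an intestinal stem cell that signals through Delta to the Notch receptor of its daughter turns that daughter into an EB, which then enlarges, copies its DNA without dividing and takes on the fate of an EC. Transcripts high in EBs can therefore belong to the progenitor state, to early differentiation or to cells that come along in the purification.

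None of the 142 could be given a gene name. The arrays name their targets by transcript identifier, and the reference table held 9 of the 15473 identifiers as synonyms of a gene on their own, with a total of 44 when identifiers inside the names of open reading frames were counted. No member was among them. Hey itself was not paired with a transcript, so neither the level of the targeted gene nor that of the progenitor markers was analysed here, and the names "EB" and "gut" rest on the labels. No gene role, position or sequence is given for a member. Members are called below by their rank, from 1 for the lowest change in EBs to 142 for the change nearest the limit.

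Values are log2 intensities after quantile normalization of the 12 arrays, a step that gives each array the same distribution. Before it, the median intensity of an array lay between 490.5 and 877.6 units. By their mean intensity the deposited arrays formed sets that the labels do not name: both EB arrays numbered 1 (2596 in Hey RNAi, 2605 in control) and both numbered 2 (2656 and 2666) lay close together, while Hey RNAi EB 3, at 2336, lay with gut arrays numbered 2 and control EB 3, at 3214, with gut arrays numbered 1. The part of these sets in the results was not tested. By same number, the median difference of the members between Hey RNAi and control EBs was -2.59, -2.44 and -2.37 for numbers 1 to 3. The rule required each such difference to be below 0, so these values do not bear on the sets.

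Of all transcripts, 395 (2.55%) fell by the required 2 log2 units in EBs and 2704 (17.5%) exceeded control guts by at least 1 unit in control EBs. Of these, 175 (6.47%) met both conditions. The limit on the gut change left 149 of these, and the separation of the EB arrays left 142. Of transcripts higher in EBs by the same limit, with the same gut limit and the arrays separated the other way, 5 were higher by 2 units in Hey RNAi EBs than in control EBs. Control EBs enter both differences with opposite signs, which favours falls among transcripts high in control EBs. The mirror of the rule, with control EBs at least 1 unit below control guts and Hey RNAi EBs at least 2 units above control EBs, under the same gut limit and separation of arrays, was met by 77 transcripts. Another 164 transcripts met the conditions on the EB change, the gut change and the separation, but not the excess of control EBs over control guts. Their difference between control EBs and control guts was under 1 unit, with a median of 0.06 (range -4.24 to 0.99).

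**Figure D1:**
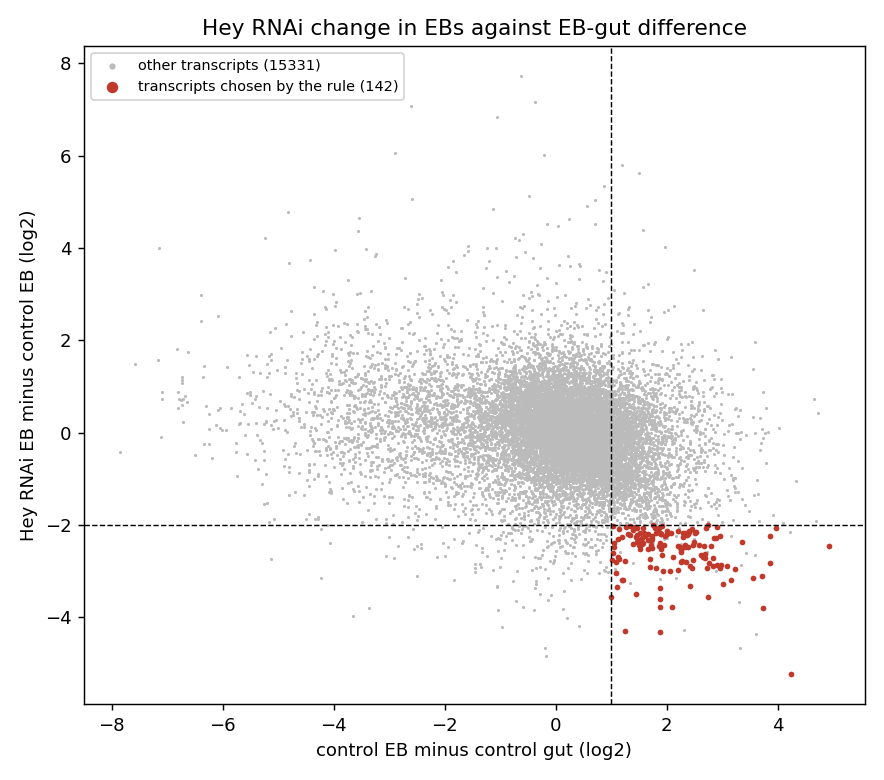
Difference between Hey RNAi EBs and control EBs (y axis, log2) against the excess of control EBs over control guts (x axis, log2) for 15473 transcripts, each point the difference of means over 3 arrays. Red points are the 142 transcripts, which lie below -2 and to the right of 1 (dashed lines) by the rule; control EBs enter both axes with opposite signs.

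By their medians, the members were near the middle of the array in control EBs and lower in the other 3 groups. Their median log2 intensity was 6.40, 7.01 and 6.37 on the Hey RNAi EB arrays, 9.55, 9.55 and 9.08 on the control EB arrays, 7.33, 7.33 and 7.45 on the Hey RNAi gut arrays and 6.93, 7.19 and 7.53 on the control gut arrays. The median over all transcripts was 9.46 on every array. Averaged over arrays, these medians were 6.59 ± 0.36 in Hey RNAi EBs, 9.39 ± 0.27 in control EBs, 7.37 ± 0.07 in Hey RNAi guts and 7.22 ± 0.30 in control guts (SD, n = 3 each). The EB groups did not overlap in these medians, which the separation required by the rule fixed in advance. The gut groups did overlap, and the rule had kept their difference small for every member.

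**Figure D2:**
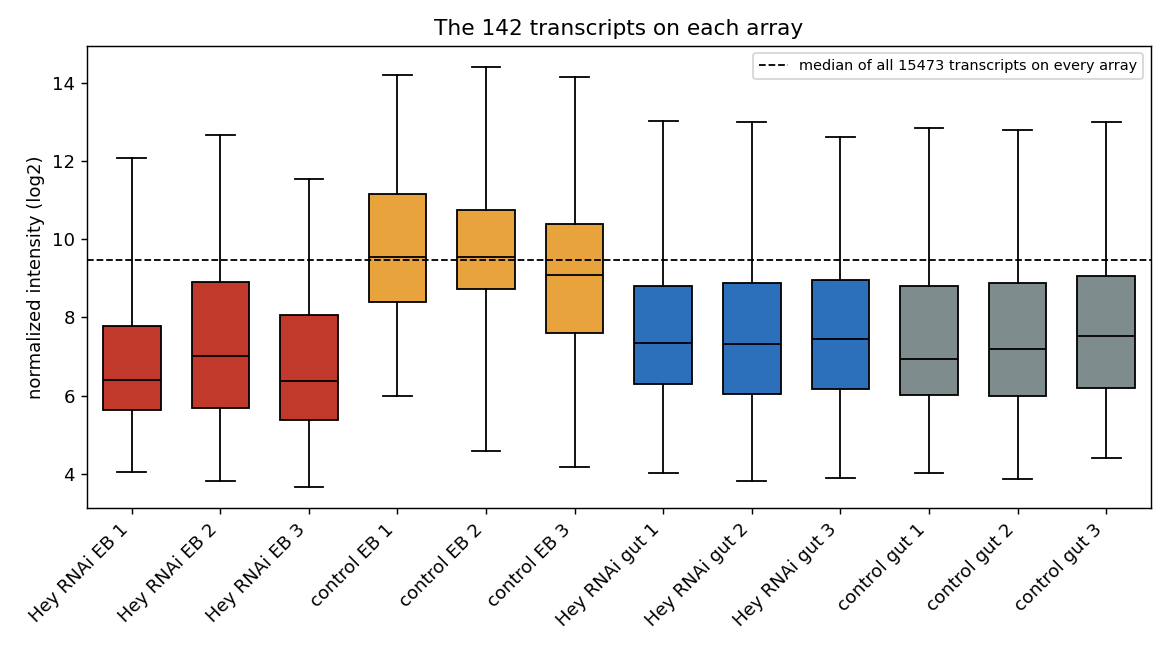
Normalized log2 intensity (y axis) of the 142 transcripts on each of the 12 arrays (x axis); boxes show the quartiles and the median, whiskers the lowest and highest transcript, and the dashed line the median of all 15473 transcripts. The medians lie between 6.37 and 7.01 on Hey RNAi EB arrays, between 9.08 and 9.55 on control EB arrays and between 6.93 and 7.53 on the 6 gut arrays.

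In control EBs the median member was thus mid-level, while single members were brighter than between 16.2% and 98.6% of all transcripts. The median member was brighter than 24.4% of all transcripts in Hey RNAi EBs, 49.1% in control EBs, 33.9% in Hey RNAi guts and 32.4% in control guts. In control EBs 13 members stood among the brightest 10% of transcripts and none among the dimmest 10%. Among the dimmest 10% stood 37 members in Hey RNAi EBs and 22 in control guts.

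The change in EBs had a median of -2.44 over the members, against 0.04 over all transcripts, and reached -5.23. No background level was set for these arrays and 37 members stood among the dimmest 10% of transcripts in Hey RNAi EBs, so the sizes of such falls are measured differences with no known floor, and no fold is given. Most changes lay near the limit: 83 members fell by 2 to 2.5 log2 units, 20 fell by 3 or more and 3 by 4 or more. The 3 members just inside the limit changed by -2.002, -2.003 and -2.017, and the 3 transcripts just outside it, with all other conditions met, by -1.991, -1.990 and -1.976. The excess of control EBs over control guts had a median of 1.92 (range 1.00 to 4.93), and 67 members were at least 2 units higher in EBs. Values just inside that limit were 1.002, 1.016 and 1.033 and just outside it 0.989, 0.943 and 0.925. Neither limit therefore marks a gap in the data.

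A limma fit of the 6 EB arrays, calling a transcript when it changed by 2-fold or more and its p, adjusted after Benjamini and Hochberg over the 15473 transcripts, was under 0.05, gave 696 transcripts that were lower and 554 that were higher in Hey RNAi EBs, which is 4.5% and 3.58% of those tested. Of the members 107 were called lower and 35 did not pass. Separation of the EB arrays, which the rule required of every member, was met in the lower direction by 17.3% of all transcripts. Since the rule chose the members on this contrast, nothing is read from either count. Leaving out 1 EB array lowered the members called to between 18 (without Hey RNAi EB 3) and 86 (without Hey RNAi EB 1).

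In the gut, the rule kept the members' changes small, and inside its limit 91 of the 142 lay above 0 (64.1%; 52.2% of all transcripts). The difference between Hey RNAi guts and control guts ran from -0.76 to 0.80 with a median of 0.14, against 0.02 over all transcripts and 0.25 over the 2704 transcripts higher in EBs. Control guts enter this difference and the excess of control EBs over control guts with the same negative sign. That favours values above 0 in the members and in the 2704, so no shift in the gut is read from them. All Hey RNAi gut arrays lay above all control gut arrays in 24 members and below them in 16, while 22.7% and 19.9% of all transcripts were separated in these directions. No member could pass the limma test in guts, because the rule kept its change under the 2-fold limit; there 3.33% of all transcripts were called lower and 3.23% higher. The members' absolute gut changes just inside the limit were 0.796, 0.786 and 0.757, and 0.829, 0.847 and 0.870 just outside it. With the authors' deposited group means in place of these values, 135 of the 142 stayed under the limit.

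The position of Hey RNAi EBs relative to control guts is the sum of 2 differences that the rule used, so the rule bounded it in part. In the 75 members whose excess of control EBs over control guts was under 2, Hey RNAi EBs had to lie below control guts. Over the 142 members the difference between Hey RNAi EBs and control guts had a median of -0.50 and ran from -3.05 to 2.47. It lay between -1 and 1 in 110 members, at -1 or below in 28 and at 1 or above in 4, while 62.3%, 18.1% and 19.7% of all transcripts lay in these ranges. Below 0 were 106 members (74.6%, against 42.2% of all transcripts). Of these 106, 75 were fixed by the rule and 31 were among the 67 members that the rule left free. Arrays of Hey RNAi EBs and control guts overlapped in 88 members (62%, against 44.7% of all transcripts). All Hey RNAi EB arrays lay below all control gut arrays in 49 members (34.5%; 23.9% of all transcripts) and above them in 5 (3.52%; 31.4% of all transcripts). A limma fit of these 6 arrays called 19 members lower and 3 higher in Hey RNAi EBs than in control guts, where 15.5% of all transcripts were called lower and 16.6% higher, and 120 members did not pass. A difference that does not pass does not show equal levels, and because the rule bears on this position, nothing is read from the members' counts beside those of all transcripts.

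The direction of this median depended on how guts and EBs were scaled. It was -0.19 with each array centred on its median, -0.18 with no further normalization, -0.61 with cyclic loess and 0.04 when guts and EBs were quantile normalized separately, and these settings also moved the median of all transcripts, which was 0.19 in the main setting and ran from 0.02 to 0.57 in the others. Relative to that median, the members stood at -0.69 in the main setting and between -0.63 and -0.53 in the other 4. With guts and EBs normalized separately, 68 of the 142 lay below control guts. In all 5 settings the median member in Hey RNAi EBs differed from control guts by between -0.61 and 0.04 log2 units, and the direction depended on the setting. Against Hey RNAi guts, Hey RNAi EBs had a median difference of -0.57, with 115 members below 0 (81%, against 42.1% of all transcripts). The rule bears on this difference too.

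**Figure D3:**
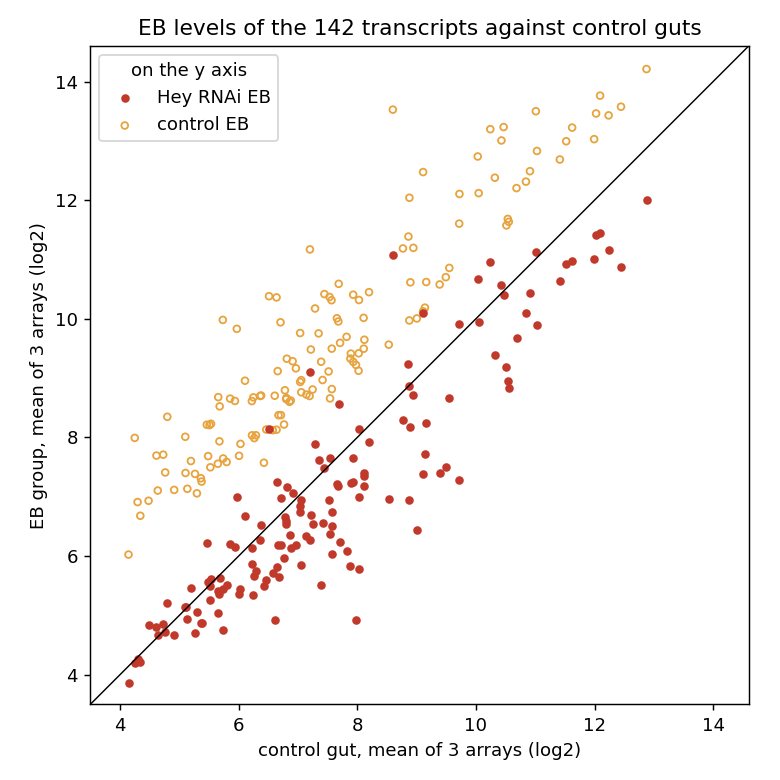
Mean log2 intensity of the 142 transcripts in Hey RNAi EBs (filled red) and in control EBs (open orange) on the y axis against control guts on the x axis, each the mean of 3 arrays; the line marks equal levels. Control EBs lie above the line by the rule, and Hey RNAi EBs lie around and below it, with a median difference of -0.50.

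Members were also grouped by their level in control guts. The 48 members in the dimmest 25% of transcripts in control guts had medians of 5.38 in Hey RNAi EBs, 7.91 in control EBs, 5.77 in Hey RNAi guts and 5.59 in control guts. Their median difference between Hey RNAi EBs and control guts was -0.11, and none reached -1. The 67 members between 25% and 50% had medians of 6.95 in Hey RNAi EBs, 9.50 in control EBs, 7.75 in Hey RNAi guts and 7.56 in control guts, with a median difference from control guts of -0.68 and 19 members at -1 or below. The 27 members in the brighter 50% had medians of 10.43 in Hey RNAi EBs, 12.74 in control EBs, 10.65 in Hey RNAi guts and 10.68 in control guts, with a median difference from control guts of -0.78 and 9 at -1 or below. The change in EBs, which the rule cut at -2, had medians of -2.44, -2.49 and -2.26 from the dimmest to the brightest range, and no likeness is read from them. The level in control guts set the ranges and also enters the difference from control guts with a negative sign. No trend across the ranges is therefore read from that difference.

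Member 1, FBtr0072837, had the lowest change in EBs, with little spread among the arrays of either EB group. Its log2 intensity was 4.80, 4.72 and 4.71 in Hey RNAi EBs, 9.86, 10.19 and 9.89 in control EBs, 4.95, 4.93 and 5.05 in Hey RNAi guts and 5.50, 5.69 and 6.01 in control guts. It was high in the 3 control EB arrays and low in all others, and in Hey RNAi EBs it was brighter than 2.02% of transcripts. The group means were 4.75 ± 0.05 in Hey RNAi EBs and 9.98 ± 0.18 in control EBs (SD, n = 3 each), a difference of -5.23. Control EBs exceeded control guts by 4.25. This is also a member whose gut change of -0.76 lay near its limit, with all Hey RNAi gut arrays below all control gut arrays.

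Member 2, FBtr0072518, changed by -4.32 but with a wide spread among the Hey RNAi EBs. It measured 5.41, 9.48 and 6.97 in Hey RNAi EBs, 11.18, 11.92 and 11.72 in control EBs, 9.79, 9.81 and 9.94 in Hey RNAi guts and 9.39, 9.60 and 10.17 in control guts. Hey RNAi EB 2 stood at the gut level and the other Hey RNAi EB arrays far below it. The SD was 2.05 in Hey RNAi EBs and 0.38 in control EBs (n = 3 each), so its mean distance of -2.43 from control guts was carried by 2 arrays.

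Member 3 ended farthest below control guts, by -3.05. Its values were 4.42, 5.67 and 4.67 in Hey RNAi EBs, 9.75, 9.33 and 8.59 in control EBs, 7.87, 7.79 and 7.99 in Hey RNAi guts and 7.71, 8.18 and 8.04 in control guts. Every Hey RNAi EB array lay below every gut array, and every control EB array above. The change in EBs was -4.30.

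At the other end, 2 members stayed well above the gut level after Hey RNAi. Member 67, FBtr0074823, measured 12.06, 10.07 and 11.07 in Hey RNAi EBs, 13.69, 13.40 and 13.50 in control EBs, 7.42, 7.50 and 8.72 in Hey RNAi guts and 8.64, 7.89 and 9.26 in control guts. Control EBs exceeded control guts by 4.93, the highest value among the members, and Hey RNAi EBs still exceeded them by 2.47 with no overlap. Member 132, FBtr0100521, measured 9.65, 9.11 and 8.55 in Hey RNAi EBs, 11.62, 11.19 and 10.70 in control EBs, 7.84, 7.89 and 8.11 in Hey RNAi guts and 7.40, 6.05 and 8.15 in control guts. Its Hey RNAi EBs lay 1.90 above control guts, again with no overlap. These members lost part of their excess over the gut and not all of it.

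The brightest member in control EBs, ranked 105, measured 11.79, 12.66 and 11.54 in Hey RNAi EBs, 14.10, 14.40 and 14.13 in control EBs, 12.83, 12.64 and 12.62 in Hey RNAi guts and 12.84, 12.80 and 12.99 in control guts. It was abundant in every group, and after a change of -2.21 in EBs its difference from control guts was -0.88. The EB groups did not overlap, while Hey RNAi EB 2 lay within the range of the Hey RNAi guts.

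In some members a single control EB array carried the whole difference. The clearest, ranked 74, measured 4.53, 4.85 and 4.63 in Hey RNAi EBs, 11.35, 5.05 and 4.92 in control EBs, 4.73, 4.41 and 4.76 in Hey RNAi guts and 4.52, 4.76 and 4.63 in control guts. Control EB 1 stood 6.30 above the next array, and the other control EBs lay just above the highest Hey RNAi EB. The dimmest member in control EBs, ranked 115, had the same shape, with 4.08, 3.81 and 3.67 in Hey RNAi EBs and 9.32, 4.58 and 4.17 in control EBs. In 10 members (7.04%; 1.47% of all transcripts) 1 control EB array lay at least 2 log2 units above the other 2, and this array was control EB 1 in 9 of them and control EB 2 in 1. Without these, 132 members remained.

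**Figure D4:**
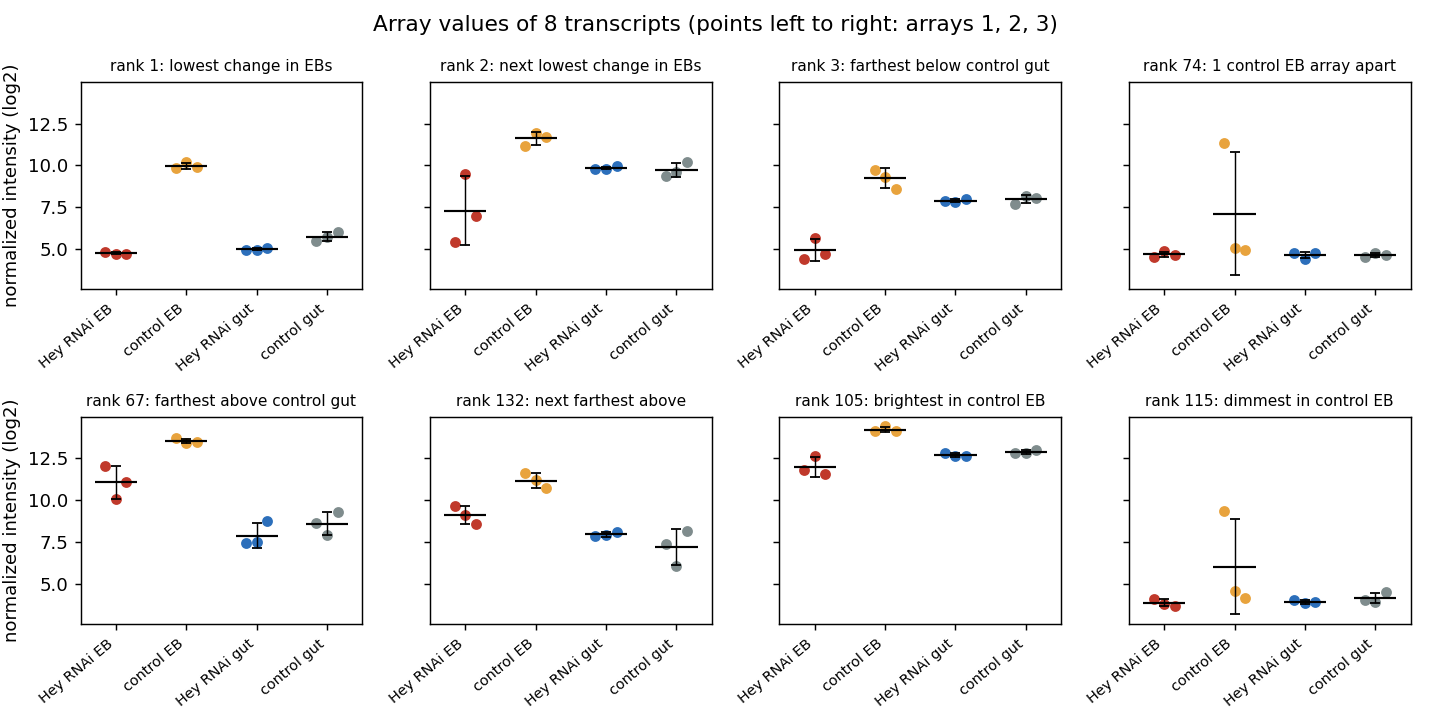
Normalized log2 intensity (y axis) of 8 members in Hey RNAi EBs, control EBs, Hey RNAi guts and control guts (x axis), with points for arrays 1, 2 and 3 from left to right, a line at the mean and bars for the SD (n = 3). Panels are titled by rank of the change in EBs; in ranks 74 and 115 the control EB mean is carried by 1 array, at 11.35 and 9.32.

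The spread of the members was slightly above that of the array as a whole. The median SD over 3 arrays was 0.53 in Hey RNAi EBs, 0.45 in control EBs, 0.20 in Hey RNAi guts and 0.25 in control guts, against 0.41, 0.35, 0.16 and 0.19 over all transcripts. Control EB 3 was the lowest control EB array in 89 of the 142 members, and Hey RNAi EB 3 the lowest Hey RNAi EB array in 63. The EB arrays of a member were separated by at least 1 log2 unit in 104 members (73.2%, against 2.77% of all transcripts). The rule had required a separation of every member. Within the members, levels in Hey RNAi EBs followed those in control guts (r = 0.92 across 142 transcripts, which share arrays and are not independent replicates), and levels in control EBs did so at r = 0.93. Over the members, the change in EBs had r = 0.00 with the level in control EBs and r = -0.19 with the difference from guts. The rule cut both differences and used these same levels, so no relation or lack of one is read from these r values.

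Membership rested on single arrays for many transcripts. With each of the 12 arrays left out in turn, between 119 (without control EB 2) and 198 (without control EB 3) transcripts met the rule, and 111 to 139 of them were among the 142. Leaving out a gut array gave 132 to 144. A total of 60 members met the rule in all 12 cases, 60 others in 10 or 11, and 22 in 9 or fewer, the lowest being 7. Members 1 and 3 met it in 11 cases and member 2 in all 12.

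**Figure D5:**
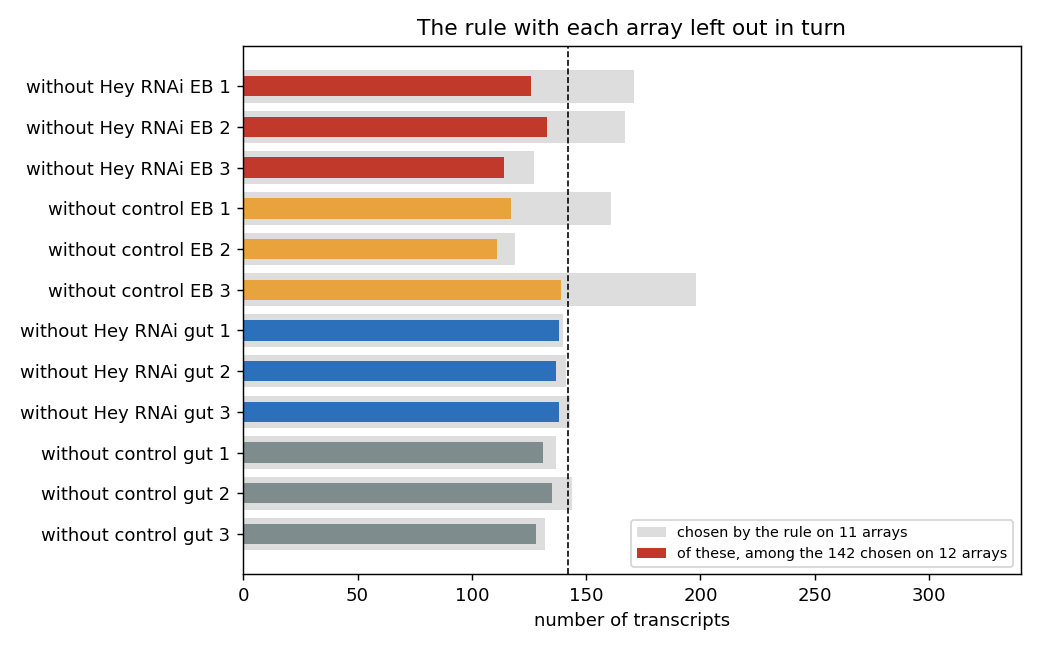
Number of transcripts that met the rule (x axis) with each array left out in turn (y axis); grey bars show all of them, coloured bars (by group) those among the 142 chosen on 12 arrays, and the dashed line 142. Leaving out an EB array moves the number between 119 and 198, and leaving out a gut array between 132 and 144.

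By their medians, the members were dimmer than transcripts that met only part of the rule. A first set was the 164 transcripts with the same fall in EBs, gut limit and separation of EB arrays, but an excess over the gut under 1 unit. They had a median of 10.53 in control EBs and 10.82 in control guts, against 9.28 and 7.21 for the members. Their median difference between Hey RNAi EBs and control guts was -2.48. The 883 transcripts higher in EBs with the same gut limit and a change in EBs under 0.5 had medians of 11.11 in control EBs and 9.52 in control guts. Both sets were defined by the same contrasts, so these values are given without a test. The limit on the excess over the gut, which parts the 164 from the members, also bears on their levels in control guts.

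The 17 gene lists set up for Notch and HES factors, progenitors, ECs, endocrine cells, muscle, basement membrane, blood cells, fat body, trachea, neurons, germline, cell cycle, lamina and signalling could hardly be read, since 3 of their 234 entries were paired with a transcript. Of these, 2 were called lower in Hey RNAi EBs, none higher, and none was a member. Among all 44 transcripts paired with a gene, 4 were called lower and 2 higher. SuUR, among the 4 but on no list, changed by -1.36 in EBs, with control EBs 1.23 above control guts. It passed in 0 of 6 fits with 1 EB array left out. Of the 3 list entries, LanA, the laminin alpha chain of the basement membrane, came nearest the rule. Its log2 intensity was 13.11, 12.90 and 12.74 in Hey RNAi EBs, 14.24, 14.29 and 14.14 in control EBs, 10.82, 11.29 and 11.20 in Hey RNAi guts and 11.35, 11.10 and 11.83 in control guts. All Hey RNAi EB arrays lay below the control EBs and above every gut array. The change in EBs was -1.31 ± 0.22 (SE; adjusted p = 0.0231, limma), short of the limit of the rule, and control EBs exceeded control guts by 2.80. Muscle and other cells of the gut also make laminin, and no other marker of these cells could be read.

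Wdr24 and mio, from a list of GATOR and TORC1 genes, encode subunits of GATOR2, a complex that promotes TORC1 activity. The gene lists were chosen with earlier results of these data known. The p-values of LanA, Wdr24 and mio are therefore no independent test. Wdr24 averaged 10.37 ± 0.24 in Hey RNAi EBs and 11.63 ± 0.33 in control EBs (SD, n = 3 each), a change of -1.26 ± 0.27 (SE; adjusted p = 0.0425, limma). The corresponding change of mio was -0.58 ± 0.34 (SE; adjusted p = 0.321, limma). With 1 EB array left out in turn, LanA passed in 1 of 6 fits (adjusted p 0.0354 to 0.0945) and Wdr24 in 0 (0.0611 to 0.141), while the changes of both stayed between -1.43 and -1.09. With no further normalization neither passed (adjusted p = 0.0549 for LanA and 0.0986 for Wdr24, limma), and with median centring LanA alone did (adjusted p = 0.0366 against 0.0781 for Wdr24).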

How the data were processed

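Total RNA from 3 independent crosses per group was amplified, marked with Cy3 and run on 1-colour NimbleGen arrays. The authors extracted the data in NimbleScan and normalized and tested them in ArrayStar; the submitters' processing notes name RMA. The deposited matrix holds an intensity per transcript on a linear scale, and whether it precedes or follows that normalization is not given in the sources used here. The authors' deposited gut means are on a log2 scale. Deposited folds, p-values and t scores of the authors' own comparisons were not used.

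Log2 intensities were quantile normalized over 12 arrays, and no transcript was filtered out. Limma 3.58.1 in R 4.3.3 (lmFit, eBayes) was fitted to the 6 arrays compared and tested on simulated data. Precision was limited by the number of arrays. Deviations from the group means went weakly together in same-numbered Hey RNAi and control EB arrays (r = 0.183, 0.321 and 0.127). Arrays of unlike number had r from -0.273 to 0.064. The labels name no pairing, and by mean intensity the EB arrays numbered 3 lay apart. Whether the numbers pair EB arrays is therefore not settled. The members and gene lists were chosen with earlier results of these data known. With no gene names, identifiers were printed for the 2 lowest changes in EBs and the 2 members farthest above control guts. Alternatives covered normalization, thresholds, a filter on dim transcripts, the arrays in the fit, the prior, the replicate block and each array left out.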

Additional observations from a re-analysis of the deposited data

How the results depend on the processing

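The number of members was 142. It was 85 with no further normalization (80 shared) and 89 with cyclic loess (85 shared). With each array centred on its median it was 172 (117 shared), and with guts and EBs quantile normalized separately 116 (112 shared). A limit of -1.5 on the change in EBs gave 279 and one of -2.5 gave 59. The number was 67 with a limit of 2 on the difference from guts and 81 without the dimmest 1 in 3 transcripts. It was 119 to 198 with 1 array left out. The median change of the members in EBs lay between -2.69 and -2.32, and the median difference from control guts between -0.59 and -0.37, with 1 array left out. The 1250 transcripts called in EBs became 2625 with all 12 arrays in 1 fit, 528 with median centring and 389 with no further normalization. With 1 EB array left out the number ran from 126 (without Hey RNAi EB 3) to 996 (without Hey RNAi EB 1), and it was 169 without control EB 3, 192 without control EB 2, 318 without control EB 1, or 576 without Hey RNAi EB 2. Calls between Hey RNAi EBs and control guts numbered 4976, and 4231 to 5299 with 1 array left out. Of the 3 list genes, 2 were called, and 0 to 1 with 1 EB array left out, an alternative chosen after seeing the data, as were the authors' gut means and the count without single-array members. The replicate block called 1207 transcripts in EBs (932 shared with the 1250) and 4949 against control guts. In the latter comparison, same-numbered arrays had r from -0.0892 to 0.164. The block changed no call of the list genes. With 3 arrays a group and no named members, neither the purity of the EBs nor the knockdown could be read from these data.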
